A study of Rattus norvegicus with 12 samples.

Results

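Myosin and actin are the motor and the track of the heartbeat, and the 9 genes described here encode the heart's forms of both. They are the myosin heavy chains Myh6, Myh7 and Myh7b, the myosin light chains Myl2, Myl3, Myl4 and Myl7, and the sarcomeric actins Acta1 and Actc1. Their rows were taken by gene symbol, and all 9 were found among the 17312 symbols of each library. All 9 also passed the filter on low values, a level of at least 1 in at least 3 of the 12 libraries, as did 10518 of all genes. Levels are in FPKM, fragments per kilobase of transcript scaled between libraries, so that genes of different length can be set beside each other.

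The cells were cardiomyocytes, the contractile muscle cells of the heart, taken from the ventricles of newborn Wistar rats and cultured. Cells of all groups received an siRNA, either a control siRNA or one targeting Wnt5a, which encodes a secreted signalling protein of the Wnt family. Cells of either kind were stretched or left unstretched. This gives 4 groups of 3 libraries, here named by stretch and siRNA: unstretched control and unstretched Wnt5a siRNA, stretched control and stretched Wnt5a siRNA. The series addresses whether Wnt5a and the co-activator YAP take part in the response of these cells to mechanical load. The sources used here do not give the siRNA sequences, the strength and length of the stretch or the number of animals. Whether replicates of a group are separate cultures is not labelled, and p-values rest on the spread of these libraries alone, which may be technical.

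In a sarcomere, pairs of heavy chains form the motor, and each heavy chain binds an essential and a regulatory light chain. Rodent ventricles before birth make mostly the slow heavy chain Myh7, replace it after birth with the fast chain Myh6, and return toward Myh7 under chronic load or low thyroid hormone. Myl2 and Myl3 are the regulatory and the essential light chain of ventricles, Myl7 and Myl4 those of atria, and Myl4 is also made in fetal ventricles. Actc1 is the main thin filament actin of the heart, and Acta1, the skeletal form, is abundant around birth and returns in hypertrophy.

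Wnt5a itself was at 12.3, 10.4 and 11.6 FPKM in unstretched control and 6.15, 4.60 and 6.81 in unstretched Wnt5a siRNA libraries. Under stretch it was at 6.52, 5.66 and 8.22 with control siRNA and 6.22, 5.88 and 5.56 with Wnt5a siRNA, so that the groups overlapped. Without stretch the siRNA mean was 51.2% of control (limma adjusted p = 0.0014), and under stretch 86.5% (adjusted p = 0.387), which gives no check of the siRNA labels there. Stretch with control siRNA lowered Wnt5a to 59.5% (log2 change −0.68, limma adjusted p = 0.0014). With Wnt5a siRNA the stretch change was 0.02 (adjusted p = 0.948), and these changes differed by 0.70 (adjusted p = 0.0244). Defining cardiomyocyte genes were high in all groups, with Tnnt2, cardiac troponin T, at group means of 4197 to 5614 FPKM. Stretched control 3 stood apart from its group: on the second principal component, with 22.9% of the variance, it scored −3.99 against 25.1 and 24.8. For many, though not all, of the values of the 9 genes and the lists that rest on the stretched control, values without this library stand beside them. FPKM sums were 575161 to 709021 per library, the 9 genes made up 2.12% to 4.46% of them, and the number of reads is unknown.

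**Figure D1:**
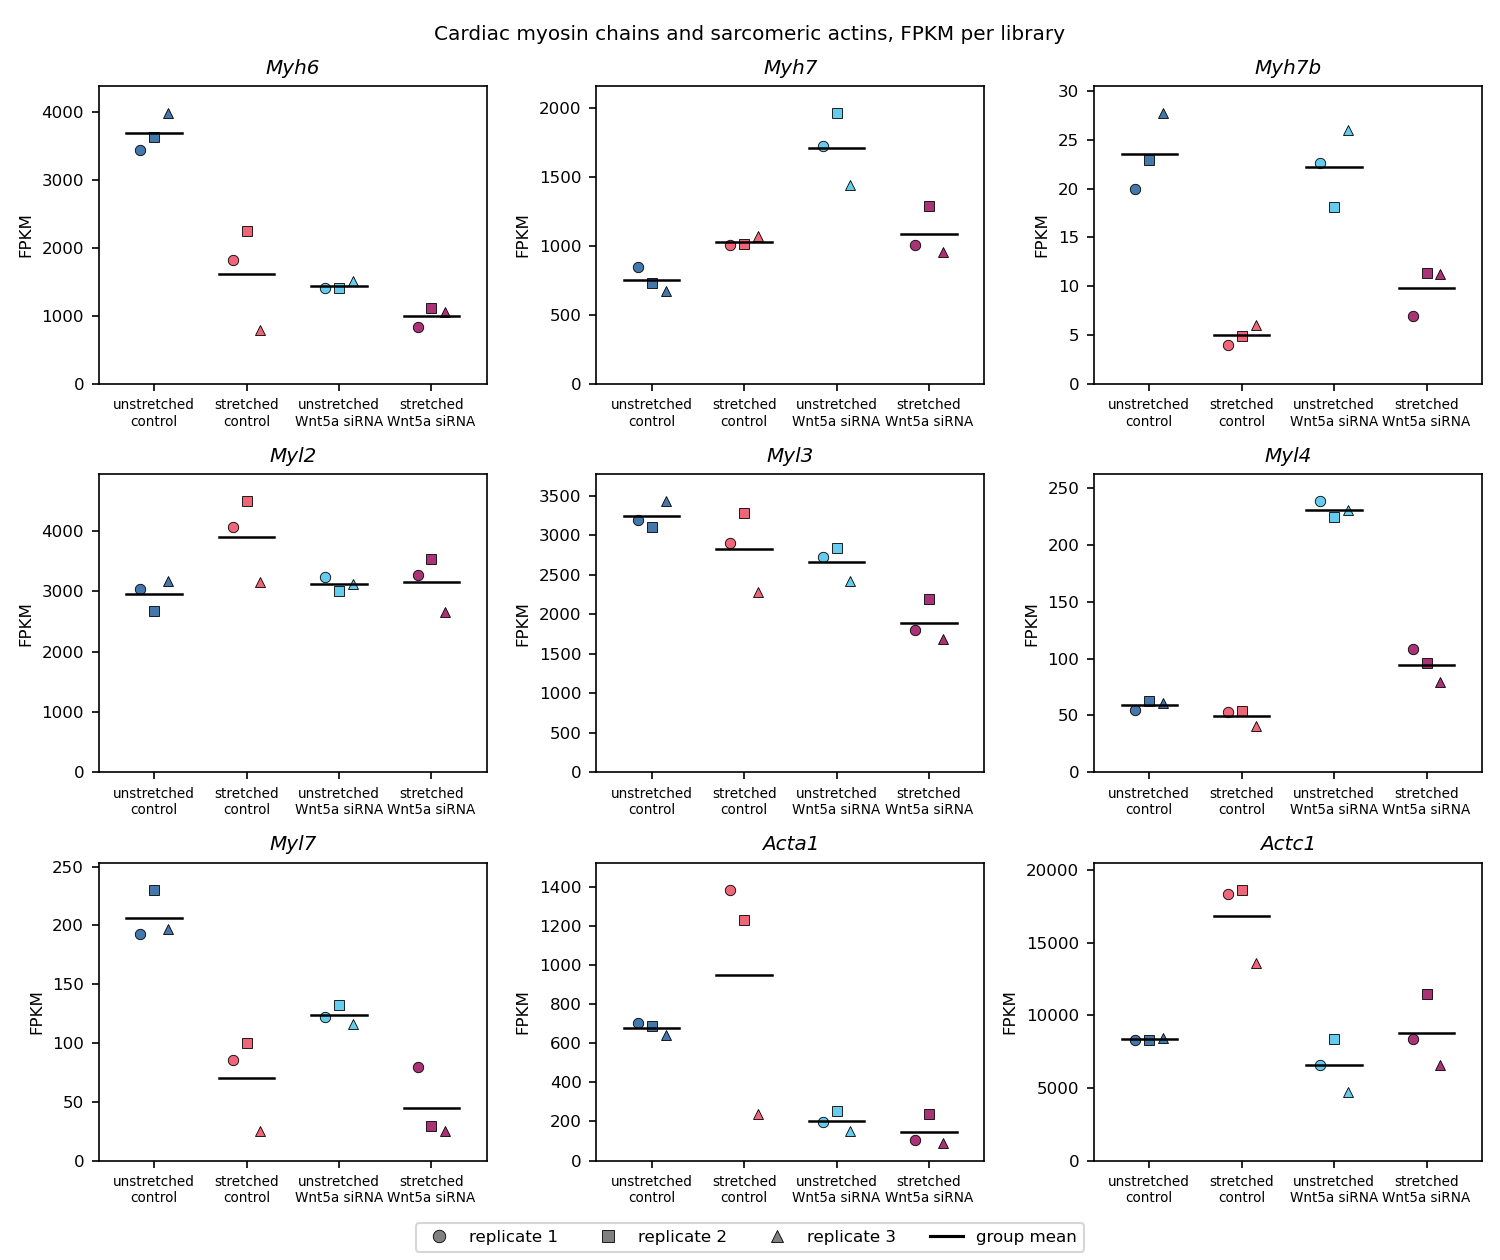
FPKM of the 9 genes (vertical axes, linear, each from 0) in the 12 libraries by group. Points are libraries, their shape gives the replicate number, and lines are group means; for Myl4 the 3 unstretched Wnt5a siRNA libraries sit between 224.7 and 238.5, above every other library, and for Acta1 stretched control 3, at 238, lies far under the other stretched control libraries.

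Stretch raised cardiac actin with control siRNA, and the libraries with Wnt5a siRNA did not reach that level. Actc1 was the most abundant of the 9 genes in every group. It was at 8289, 8321.5 and 8407 FPKM in unstretched control and 18337.5, 18628 and 13569 in stretched control libraries. With Wnt5a siRNA it was at 6586, 8365 and 4717 unstretched and 8353, 11437 and 6565 stretched. All stretched control libraries lay above all other libraries, while the Wnt5a siRNA groups overlapped each other. Stretch with control siRNA raised the mean from 8339 ± 60.9 to 16845 ± 2841 (SD, n = 3), 2.02-fold.

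Changes were tested with limma on log2(FPKM + 1) over all 10518 genes, and p-values were adjusted by Benjamini and Hochberg with a threshold of 0.05. On this scale Actc1 rose by 1.0 ± 0.22 (SE) with stretch and control siRNA (95% interval 0.51 to 1.48, adjusted p = 0.0024). With Wnt5a siRNA the stretch change was 0.42 ± 0.22 and did not pass (interval −0.06 to 0.91, adjusted p = 0.224). The difference between these changes, −0.58 ± 0.32, did not pass either (interval −1.26 to 0.11, adjusted p = 0.201). Under stretch, Actc1 fell with Wnt5a siRNA to 52.2% of control (−0.96 ± 0.22, adjusted p = 0.0102), and without stretched Wnt5a siRNA 3 the change was −0.77 (adjusted p = 0.0505). Without stretched control 3 the changes were 1.15 with stretch and control siRNA and −1.11 with Wnt5a siRNA under stretch (adjusted p = 0.0011 and 0.0023). Quantile normalization gives all libraries the same ranked values, and Actc1 held rank 1 in all libraries but unstretched Wnt5a siRNA 2 and 3, where it held rank 2. By construction it left 0.00 for both of these changes, while Wnt5a siRNA without stretch gave −0.34 and passed (adjusted p = 0.0481, range 0.0481 to 0.612, and −0.39 ± 0.22 with 0.22 otherwise). The adjusted p over the alternatives ran from 3.4e-04 to 1 for stretch with control siRNA and from 0.0021 to 1 for Wnt5a siRNA under stretch. These are bulk libraries, so fewer cells of a type and less RNA per cell cannot be told apart, here and in all results that follow.

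Acta1 was lower with Wnt5a siRNA with and without stretch, and its response to stretch turned on 1 library. It was at 704, 689 and 642.5 FPKM in unstretched control and 196, 255 and 149.5 in unstretched Wnt5a siRNA libraries, which did not overlap. In stretched cells it was at 1387, 1235 and 238 with control siRNA and 106, 239 and 91.5 with Wnt5a siRNA. Of the stretched control libraries 2 were the highest of all 12, and stretched control 3 lay within the range of the stretched Wnt5a siRNA libraries.

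With Wnt5a siRNA Acta1 fell to 29.5% of control without stretch (log2 change −1.79 ± 0.54, limma adjusted p = 0.0275) and to 15.3% under stretch (−2.48 ± 0.54, interval −3.65 to −1.30, adjusted p = 0.008). The first of these did not pass without unstretched control 1, 2 or 3 or unstretched Wnt5a siRNA 1 or 3 (adjusted p = 0.0652 to 0.0817), nor without the filter on low values (0.0518), within 2.0e-04 to 0.0817 over all alternatives. Stretch with control siRNA gave 0.13 ± 0.54 (interval −1.05 to 1.31, adjusted p = 0.854), and −0.10 when all libraries were scaled to the same sum. Without stretched control 3 Acta1 rose with stretch by 0.95 (adjusted p = 0.0232), within a range of 0.0232 to 0.917 over the alternatives. In that fit the change with Wnt5a siRNA under stretch was −3.29 (adjusted p = 2.2e-05, range 2.2e-05 to 0.0479), and the stretch change differed between the siRNAs by −1.51 (adjusted p = 0.0179, against 0.543 with all libraries).

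Under stretch, Wnt5a siRNA lowered Acta1, Actc1 and Myl3 and raised Myl4 and Myh7b, and the promoters of these 5 genes are shown to set the groups beside each other. Each window runs from 250 bases before to 50 bases after the RefSeq start on the assembly GRCr8, 5′ to 3′ on the gene's strand, at chr19:68784145-68784444 (minus), chr3:121271778-121272077 (minus), chr8:119616844-119617143 (plus), chr10:89975900-89976199 (plus) and chr3:164558090-164558389 (plus). The FPKM were made on the build rn6, so these coordinates locate the windows in the reference only. Capitals mark matches on either strand to CATTCC, the MCAT element bound by TEAD factors, to the CArG box bound by serum response factor, and to the core promoter letters TATAAA. Matches to GATAA, the letters read by cardiac zinc finger factors, were looked for as well. None of the matches in these windows overlap.
Acta1: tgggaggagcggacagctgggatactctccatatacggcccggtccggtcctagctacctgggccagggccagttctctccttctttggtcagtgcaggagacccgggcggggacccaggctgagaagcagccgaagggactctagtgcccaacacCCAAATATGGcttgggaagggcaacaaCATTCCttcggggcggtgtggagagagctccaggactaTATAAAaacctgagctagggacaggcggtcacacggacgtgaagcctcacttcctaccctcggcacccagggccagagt
Actc1: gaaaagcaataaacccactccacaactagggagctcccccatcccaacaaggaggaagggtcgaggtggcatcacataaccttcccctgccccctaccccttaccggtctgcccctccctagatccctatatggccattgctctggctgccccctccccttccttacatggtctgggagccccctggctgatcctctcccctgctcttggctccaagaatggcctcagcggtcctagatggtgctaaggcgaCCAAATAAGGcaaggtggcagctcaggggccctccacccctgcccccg
Myl3: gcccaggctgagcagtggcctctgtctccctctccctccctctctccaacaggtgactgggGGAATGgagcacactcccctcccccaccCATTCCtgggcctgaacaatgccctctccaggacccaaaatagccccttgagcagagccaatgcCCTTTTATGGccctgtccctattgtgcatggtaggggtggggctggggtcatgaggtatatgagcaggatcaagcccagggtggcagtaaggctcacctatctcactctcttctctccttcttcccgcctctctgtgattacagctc
Myl4: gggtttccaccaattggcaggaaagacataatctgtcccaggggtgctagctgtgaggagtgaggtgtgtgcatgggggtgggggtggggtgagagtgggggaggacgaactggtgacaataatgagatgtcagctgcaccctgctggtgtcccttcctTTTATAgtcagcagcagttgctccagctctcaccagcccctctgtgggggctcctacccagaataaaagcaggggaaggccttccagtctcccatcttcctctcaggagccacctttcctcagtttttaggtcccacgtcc
Myh7b: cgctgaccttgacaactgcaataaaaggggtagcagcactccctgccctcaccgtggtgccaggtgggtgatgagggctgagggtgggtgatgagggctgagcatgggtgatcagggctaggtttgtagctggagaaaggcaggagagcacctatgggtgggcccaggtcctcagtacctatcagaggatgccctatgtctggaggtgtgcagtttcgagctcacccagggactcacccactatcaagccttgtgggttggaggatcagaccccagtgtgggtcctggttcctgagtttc
RefSeq windows were matched for 8 of the 9 genes, all but Myl2. A CArG box was found in Acta1 (bases −94 to −85 from the start), Actc1 (3 to 12) and Myl3 (−97 to −88), and in none of the other 5 windows. Of 33469 rat promoter windows of the same length 1.64% held one. MCAT was found in Acta1 (−67 to −62), Myh6 (−23 to −18) and Myl3 (2 matches), against 14.2% of all windows. TATAAA was found in Acta1 (−29 to −24) and Myl4 (−91 to −86, opposite strand), against 14.2%, and GATAA in none of the 8, against 26.5%. With all libraries, the 3 genes with a CArG box were also the 3 called lower with Wnt5a siRNA under stretch. Without stretched control 3, however, Myh6 and Myl7, whose windows hold no CArG box, and Myl2, which has no window here, were called lower too. These windows were compared after the calls were known, and a match is a description of letters, not of binding.

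The fast heavy chain Myh6 fell with stretch under control siRNA and with Wnt5a siRNA in unstretched cells, and Myh7, the slow chain, rose most with Wnt5a siRNA in unstretched cells. Myh6 was at 3439, 3631 and 3985 FPKM in unstretched control and 1405, 1410.3 and 1506 in unstretched Wnt5a siRNA libraries. Under stretch it was at 1823, 2242 and 798 with control siRNA and 831, 1117 and 1056 with Wnt5a siRNA. Every unstretched control library lay above every other library, and stretched control 3 was the lowest of the 12.

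Stretch with control siRNA lowered Myh6 to 44.0% (log2 change −1.31 ± 0.28, limma adjusted p = 0.0017), and the change was −0.86 without stretched control 3 (adjusted p = 1.1e-04, range 1.1e-04 to 0.0147 over the alternatives). Wnt5a siRNA without stretch lowered it to 39.1% (−1.35 ± 0.28, adjusted p = 0.0045). Between unstretched and stretched Wnt5a siRNA libraries Myh6 differed by −0.53 ± 0.28, and between the stretched groups by −0.58 ± 0.28, and neither passed (adjusted p = 0.218 and 0.137). Both passed without stretched control 3, at −0.53 (adjusted p = 0.0047, range 0.0047 to 0.486) and −1.02 (adjusted p = 8.8e-05, range 8.8e-05 to 0.461). The stretch changes of Myh6 differed between the siRNAs by 0.78 ± 0.39, which did not pass (interval −0.08 to 1.63, adjusted p = 0.169), except without stretched control 2, at 1.07 (adjusted p = 0.0409, range 0.0409 to 0.277).

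Myh7 was at 846, 732 and 676 FPKM in unstretched control, 1008, 1014 and 1072 in stretched control and 1729.5, 1966 and 1446 in unstretched Wnt5a siRNA libraries. In stretched Wnt5a siRNA libraries it was at 1009, 1292 and 958. The unstretched control was the lowest group and the unstretched Wnt5a siRNA the highest, both without overlap, and the stretched groups lay between them and overlapped each other. Stretched control 3 did not stand apart here.

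Wnt5a siRNA without stretch raised Myh7 2.28-fold (log2 change 1.18 ± 0.13, limma adjusted p = 3.4e-04). Under stretch its level with Wnt5a siRNA was 105.3% of control (0.06 ± 0.13, interval −0.22 to 0.35, adjusted p = 0.75). The slow chain rose 1.37-fold with stretch and control siRNA (0.46 ± 0.13, adjusted p = 0.0101) and fell to 63.4% with stretch and Wnt5a siRNA (−0.66 ± 0.13, adjusted p = 0.0057). These stretch changes differed by −1.12 ± 0.19 (interval −1.52 to −0.72, adjusted p = 0.0026), and by −1.09 without stretched control 3 (0.0018). The rise with control siRNA depended on the scaling: it was 0.23 with libraries scaled to the same sum (adjusted p = 0.123) and 0.14 after quantile normalization (0.308), within 0.0054 to 0.308, and 0.43 without stretched control 3 (0.0219).

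Myh7b, a slow tonic myosin made at low levels in the heart, fell with stretch under both siRNAs. It was at 19.9, 22.9 and 27.7 FPKM in unstretched control, 22.6, 18.2 and 26.0 in unstretched Wnt5a siRNA, 3.99, 4.85 and 6.06 in stretched control and 6.99, 11.3 and 11.3 in stretched Wnt5a siRNA libraries. The unstretched groups overlapped, every stretched library lay under them, and the stretched control lay under the stretched Wnt5a siRNA libraries. Stretch lowered it to 21.1% with control siRNA (log2 change −2.04 ± 0.19, limma adjusted p = 6.0e-06) and to 44.3% with Wnt5a siRNA (−1.11 ± 0.19, adjusted p = 0.0028).

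The difference of the 2 stretch changes of Myh7b, 0.93 ± 0.27, passed (limma adjusted p = 0.0277). It did not pass without unstretched control 2 or 3, unstretched Wnt5a siRNA 1 or 2, stretched control 1, or stretched Wnt5a siRNA 2 or 3 (adjusted p = 0.0537 to 0.0743, within 0.0069 to 0.0743 over all alternatives). Under stretch Myh7b was 1.99-fold higher with Wnt5a siRNA (0.85 ± 0.19, adjusted p = 0.0091), and without stretch it was at 94.6% of control (−0.08 ± 0.19, interval −0.49 to 0.34, adjusted p = 0.793). Without stretched control 3 the change of Myh7b was −2.17 with stretch and control siRNA, 0.98 with Wnt5a siRNA under stretch and 1.06 for the difference.

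The ventricular light chains were far more abundant than the atrial ones in every group, and Myl4 rose with Wnt5a siRNA while Myl7 fell with stretch. In stretch with Wnt5a siRNA both atrial chains fell. Myl4, the atrial and fetal essential light chain, was at 55.0, 62.8 and 60.8 FPKM in unstretched control and 53.1, 54.1 and 40.8 in stretched control libraries. With Wnt5a siRNA it was at 238.5, 224.7 and 230.9 unstretched and 108.6, 95.9 and 79.3 stretched. Every Wnt5a siRNA library lay above every control library, in both states.

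Wnt5a siRNA raised Myl4 3.89-fold without stretch (log2 change 1.94 ± 0.12, limma adjusted p = 4.7e-06) and 1.92-fold under stretch (0.93 ± 0.12, adjusted p = 0.0016). Stretch lowered it to 40.9% with Wnt5a siRNA (−1.29 ± 0.12, adjusted p = 8.4e-05), while with control siRNA the change was −0.27 ± 0.12 (interval −0.53 to −0.02, adjusted p = 0.0673). The stretch changes differed by −1.02 ± 0.17 (adjusted p = 0.0026). The change under stretch was 0.80 and the difference −1.15 when stretched control 3 was left out. With control siRNA the change passed as a fall without stretched control 2 or stretched Wnt5a siRNA 3 (adjusted p = 0.0421 and 0.041), with libraries scaled to the same sum (−0.50, 0.0014) and after quantile normalization (−0.36, 0.0133), within 0.0014 to 0.244.

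Myl7, the atrial regulatory light chain, was at 193, 230.2 and 197 FPKM in unstretched control, 85.3, 100 and 25 in stretched control, 122.4, 132.1 and 116.4 in unstretched Wnt5a siRNA and 79.2, 29.4 and 25.0 in stretched Wnt5a siRNA libraries. All stretched libraries lay under all unstretched ones, and the stretched groups overlapped and had the widest relative spread. Stretch lowered Myl7 to 34.0% with control siRNA (log2 change −1.76 ± 0.46, limma adjusted p = 0.0062) and to 36.0% with Wnt5a siRNA (−1.64 ± 0.46, adjusted p = 0.0303).

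The first fall of Myl7 was −1.15 without stretched control 3 (limma adjusted p = 0.0127, range 0.0019 to 0.0232 over the alternatives). The second did not pass without any 1 of the unstretched Wnt5a siRNA libraries or without stretched Wnt5a siRNA 2 or 3 (adjusted p = 0.0673 to 0.106), nor without the filter on low values (0.0558), within 0.0026 to 0.106. With Wnt5a siRNA Myl7 differed by −0.73 ± 0.46 without stretch and −0.61 ± 0.46 under stretch, and neither passed (adjusted p = 0.258 and 0.335). The latter was −1.23 without stretched control 3 (adjusted p = 0.0123, range 0.0123 to 0.744). The former passed when only the unstretched libraries were fitted (adjusted p = 3.7e-04). Its range over the alternatives was 3.7e-04 to 0.419.

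Myl3, the ventricular essential light chain, was at 3194, 3104 and 3429 FPKM in unstretched control and 2719, 2842 and 2424 in unstretched Wnt5a siRNA libraries. In stretched cells it was at 2899, 3279 and 2287 with control siRNA and 1805, 2191 and 1690.5 with Wnt5a siRNA. The stretched Wnt5a siRNA libraries were the lowest 3 of the 12, and the other 9 lay between 2287 and 3429.

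Under stretch Wnt5a siRNA lowered Myl3 to 67.2% of control (log2 change −0.57 ± 0.13, limma adjusted p = 0.0107), with −0.71 when stretched control 3 was left out (4.5e-04). This did not pass without stretched Wnt5a siRNA 3 (−0.49, adjusted p = 0.0535) or with only the stretched libraries in the fit (0.0578), within 4.5e-04 to 0.0578. Stretch with Wnt5a siRNA lowered Myl3 to 71.2% (−0.50 ± 0.13, adjusted p = 0.0254), which did not pass without unstretched Wnt5a siRNA 1 or 2 or stretched Wnt5a siRNA 1 or 3 (adjusted p = 0.0849 to 0.0928), nor without the filter on low values (0.0542), within 0.004 to 0.0928. With stretch and control siRNA the change of Myl3 was −0.21 ± 0.13 (adjusted p = 0.191), and it passed with libraries scaled to the same sum (−0.44, adjusted p = 0.0069) and after quantile normalization (−0.58, 0.0043), within 0.0043 to 0.608. With Wnt5a siRNA and no stretch the difference was −0.29 ± 0.13, which did not pass (adjusted p = 0.128), although the libraries did not overlap. That change passed without stretched control 3 (adjusted p = 0.041) and with only the unstretched libraries (0.0165), within 0.0165 to 0.313, as did the difference of the stretch changes without stretched control 3, at −0.42 (0.0459, range 0.0459 to 0.587).

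Myl2, the ventricular regulatory light chain, was at 3043, 2677 and 3165 FPKM in unstretched control and 4066, 4492 and 3150.1 in stretched control libraries. With Wnt5a siRNA it was at 3231, 3003.5 and 3123 unstretched and 3269, 3543 and 2651 stretched. Stretched control 1 and 2 lay above the other 10 libraries, and stretched control 3 lay with the rest. Stretch with control siRNA changed the mean 1.32-fold (log2 change 0.39 ± 0.14, interval 0.09 to 0.69, limma adjusted p = 0.0317), with overlapping libraries.

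That rise of Myl2 was 0.53 without stretched control 3 (limma adjusted p = 0.002). It did not pass without unstretched control 1 or 2 or stretched control 1 or 2 (adjusted p = 0.0552 to 0.118), without the filter on low values (0.068), with only the 6 control libraries (0.0752), with libraries scaled to the same sum (0.16, adjusted p = 0.3) or after quantile normalization (0.02, 0.873), within 0.002 to 0.873. With Wnt5a siRNA the stretch change was 0.01 ± 0.14 (interval −0.29 to 0.31, adjusted p = 0.983). Under stretch the siRNA groups differed by −0.30 ± 0.14 (adjusted p = 0.119), and by −0.45 without stretched control 3 (adjusted p = 0.0086, range 0.0086 to 0.427). In that fit the stretch changes of Myl2 also differed, by −0.53 (adjusted p = 0.0218, range 0.0218 to 0.373, and 0.174 with all libraries).

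**Figure D2:**
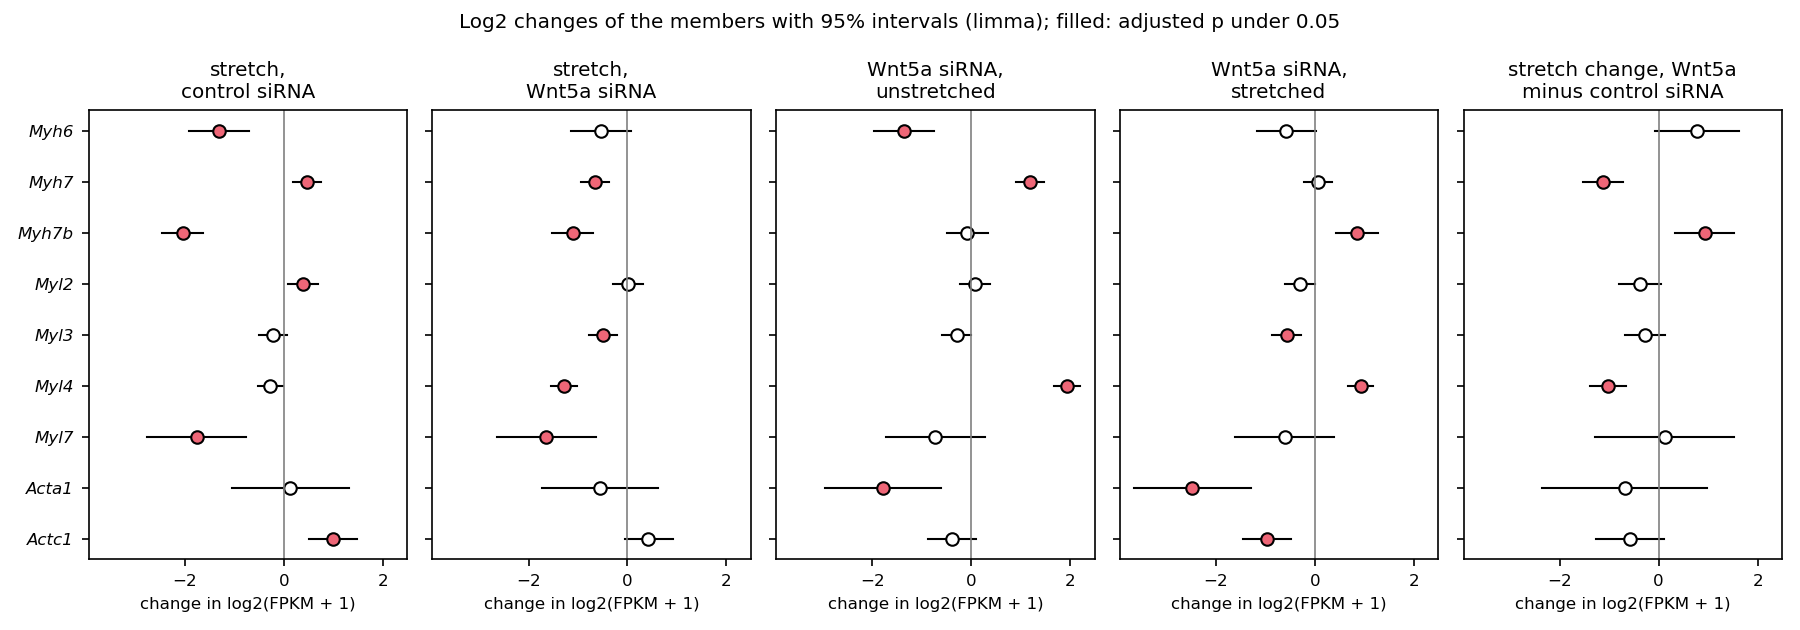
Changes of the 9 genes in log2(FPKM + 1) (horizontal axes) in the 5 comparisons, with 95% intervals from limma; the last panel is the stretch change with Wnt5a siRNA minus that with control siRNA, and filled points passed at an adjusted p under 0.05. Myh7, Myh7b and Myl4 are the filled points of the last panel, and Acta1 and Myl7 have the widest intervals.

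Counted over the 9 genes, stretch with control siRNA raised 3 (Actc1, Myh7 and Myl2) and lowered 3 (Myh6, Myh7b and Myl7), in a comparison in which 54.3% of all genes were called, 27.5% higher and 26.8% lower. Stretch with Wnt5a siRNA raised none and lowered 5 (Myh7, Myh7b, Myl3, Myl4 and Myl7), where 16% of all genes were called, 8.44% higher and 7.59% lower. Wnt5a siRNA without stretch raised 2 (Myh7 and Myl4) and lowered 2 (Myh6 and Acta1), against 28.5% of all genes, 14.6% higher and 13.9% lower. Under stretch it raised 2 (Myl4 and Myh7b) and lowered 3 (Acta1, Actc1 and Myl3), against 27.3%, 13.2% higher and 14.2% lower. The difference of the stretch changes passed for 3, higher for Myh7b and lower for Myh7 and Myl4, against 23.8%, 11.7% higher and 12.1% lower. Outside the test, all libraries of 1 group lay above those of the other for 2 genes and under them for 4 in stretch with control siRNA, against 58% of all genes (29% each way). For stretch with Wnt5a siRNA these counts were 0 and 6, against 40.7% (20.1% higher, 20.6% lower). For Wnt5a siRNA they were 2 and 4 without stretch, against 49.4% (24.7% each way), and 2 and 2 under stretch, against 37.6% (18.6% higher, 19% lower).

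The median log2 change of the 9 genes was −0.21, −0.56, −0.29, −0.57 and −0.38 in these 5 comparisons, in the same order, beside 0.01, −0.01, 0.00, 0.00 and 0.00 over all genes tested. Scaling factors from the median ratio to each gene's geometric mean ran only from 0.9997 to 1.006 over the libraries. The deposited values were thus already level by this measure, and medians near 0 over all genes follow from that and are no finding. The comparisons share groups of libraries, so they are not independent of each other. With stretched control 3 left out the counts higher and lower were 4 and 3, 0 and 6, 2 and 3, 2 and 6, and 1 and 5, with 57.4%, 25%, 37.4%, 44.4% and 34.6% of all genes called. With equal FPKM sums in all libraries the median change of all genes in stretch with control siRNA became −0.19 and the share of higher genes among all calls from 50.6% to 24.4%, and the 9 genes then gave 1 higher and 5 lower. With Wnt5a siRNA the same scaling took the stretch median to −0.12 and the share of higher calls from 52.7% to 22%, with 0 higher and 5 lower as before. In Wnt5a siRNA under stretch the share went from 48.2% to 72.9% and in the difference of the stretch changes from 49% to 66.4%, and the counts of the 9 genes stayed at 2 and 3, and 1 and 2.

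The order of levels changed with the groups. Actc1 stood first everywhere and Myh7b last. In unstretched control the order from the top was Actc1, Myh6, Myl3, Myl2, Myh7, Acta1, Myl7, Myl4 and Myh7b, and Myl3 and Myl2, and Myh7 and Acta1, overlapped. In unstretched Wnt5a siRNA Myh6 stood behind Myl2, Myl3 and Myh7, and Myl4 stood ahead of Acta1 and Myl7, with overlaps between Myh7 and Myh6 and between Myl4 and Acta1. In stretched control the order was Actc1, Myl2, Myl3, Myh6, Myh7, Acta1, Myl7, Myl4 and Myh7b, and Myl2 and Myl3, Myh6 and Myh7, Myh7 and Acta1, and Myl7 and Myl4 overlapped. In stretched Wnt5a siRNA it was Actc1, Myl2, Myl3, Myh7, Myh6, Acta1, Myl4, Myl7 and Myh7b, and Myh7 and Myh6, and Acta1 and Myl4, overlapped.

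Ratios between isoforms within a library do not depend on how libraries are scaled to each other, except under quantile normalization. They were tested on a log2 scale by exact 2-sided permutation of the labels within each stratum (400 arrangements, smallest p 0.005), adjusted over 15 tests. For the difference of the stretch changes, siRNA labels were permuted within each stretch state. The null there is that the siRNA changes the ratio in neither state, so this p does not test the difference alone. Because reads of Myh6 and Myh7, which are near-identical neighbours, and of Acta1 and Actc1 may be shared between copies, and the sources used here do not say how they were treated, levels and ratios of these pairs are uncertain.

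Myh7 to Myh6, the slow to fast ratio, was 0.246, 0.202 and 0.170 in unstretched control and 1.23, 1.39 and 0.960 in unstretched Wnt5a siRNA libraries. Under stretch it was 0.553, 0.452 and 1.34 with control siRNA and 1.21, 1.16 and 0.907 with Wnt5a siRNA. The unstretched control lay under all other libraries, and stretched control 3 lay with the Wnt5a siRNA libraries, not with its own group. As shares, Myh7 made up 17.0% ± 2.63 of the pair's summed FPKM in unstretched control, 54.1% ± 4.71 in unstretched Wnt5a siRNA, 41.4% ± 14.0 in stretched control and 52.0% ± 3.89 in stretched Wnt5a siRNA libraries (SD, n = 3). The stretched control share was 33.4% without stretched control 3.

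Averaged over both states, Wnt5a siRNA raised the slow to fast ratio by 1.59 on the log2 scale (exact permutation p = 0.02, adjusted p = 0.0429), 5.81-fold without stretch and 1.56-fold with it. Without stretch the groups did not overlap (exact permutation p = 0.1, the smallest for 3 libraries against 3). Under stretch they overlapped (exact permutation p = 0.4). Without stretched control 3 the averaged change was 1.83 (adjusted p = 0.015). It did not pass without stretched control 1 or 2 or stretched Wnt5a siRNA 1 (adjusted p = 0.0656, 0.075 and 0.0536). For stretch the change was 0.82 (exact permutation p = 0.08, adjusted p = 0.133), 3.42-fold with control siRNA and 0.918-fold with Wnt5a siRNA, and 0.59 without stretched control 3 (adjusted p = 0.173). The difference of the stretch changes, −1.90, did not pass (exact permutation p = 0.11, adjusted p = 0.15), nor did −1.42 without stretched control 3 (adjusted p = 0.368).

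Myh7b to Myh7 had geometric means of 0.0312 in unstretched control, 0.0130 in unstretched Wnt5a siRNA, 0.00475 in stretched control and 0.00894 in stretched Wnt5a siRNA libraries. Stretch changed the log2 ratio by −1.62 (exact permutation p = 0.01, adjusted p = 0.025), 6.56-fold with control siRNA and 1.45-fold with Wnt5a siRNA. These stretch changes differed by 2.18 (exact permutation p = 0.005, the smallest the design gives, adjusted p = 0.0187, against a null of no siRNA effect in either state). Wnt5a siRNA went with a lower ratio without stretch and a higher one under stretch, −0.18 over both (exact permutation p = 0.67, adjusted p = 0.718). With stretched control 3 left out the stretch change was −1.69 and the difference 2.30 (adjusted p = 0.0214 and 0.015).

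Myl3 to Myl4, the ventricular to atrial essential light chain ratio, was 58.1, 49.5 and 56.4 in unstretched control and 54.6, 60.7 and 56.0 in stretched control libraries. With Wnt5a siRNA it was 11.4, 12.7 and 10.5 unstretched and 16.6, 22.9 and 21.3 stretched. All 6 control libraries, stretched control 3 included, lay far above all 6 Wnt5a siRNA libraries. The log2 change with Wnt5a siRNA was −1.88 (exact permutation p = 0.005, adjusted p = 0.0187), 4.75-fold lower without stretch and 2.84-fold lower under stretch. Averaged over both siRNAs stretch gave 0.44 (exact permutation p = 0.03, adjusted p = 0.0562). The change was 1.05-fold with control siRNA, where the groups overlapped, and 1.75-fold with Wnt5a siRNA. The average passed without unstretched control 3 (adjusted p = 0.0469). Over the alternatives it ran from 0.21 to 0.50 (adjusted p = 0.0469 to 0.389). Myl4 made up 1.81% ± 0.154 of the pair in unstretched control, 8.03% ± 0.686 in unstretched Wnt5a siRNA, 1.73% ± 0.0916 in stretched control and 4.78% ± 0.786 in stretched Wnt5a siRNA libraries (SD, n = 3).

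Myl2 to Myl7, the same comparison for regulatory light chains, rose with stretch. It was 15.8, 11.6 and 16.1 in unstretched control and 26.4, 22.7 and 26.8 in unstretched Wnt5a siRNA libraries. In stretched cells it was 47.7, 44.9 and 126 with control siRNA and 41.3, 120.4 and 106.1 with Wnt5a siRNA. All stretched libraries lay above all unstretched ones. The log2 change with stretch was 1.92 (exact permutation p = 0.005, adjusted p = 0.0187), 4.50-fold with control siRNA and 3.20-fold with Wnt5a siRNA, and it was 1.68 without stretched control 3 (adjusted p = 0.015). Wnt5a siRNA gave 0.57 (exact permutation p = 0.11, adjusted p = 0.15).

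Acta1 to Actc1 was 0.0849, 0.0828 and 0.0764 in unstretched control and 0.0298, 0.0305 and 0.0317 in unstretched Wnt5a siRNA libraries, with little spread in either group. Under stretch it was 0.0757, 0.0663 and 0.0175 with control siRNA and 0.0127, 0.0209 and 0.0139 with Wnt5a siRNA. Stretched control 3 lay within the range of the stretched Wnt5a siRNA libraries. The log2 ratio changed by −1.46 with Wnt5a siRNA (exact permutation p = 0.01, adjusted p = 0.025) and by −0.93 with stretch (exact permutation p = 0.005, adjusted p = 0.0187). Both are averages, and the stretch change was −0.87 with control siRNA and −0.99 with Wnt5a siRNA. Without stretched control 3 the averages were −1.80 with Wnt5a siRNA and −0.59 with stretch (adjusted p = 0.015 and 0.0214). Stretched control 1 and 2, at 0.0757 and 0.0663, lay close under the lowest unstretched control library, at 0.0764. The size of the fall with control siRNA thus rested largely on stretched control 3. The averaged stretch change did not pass without unstretched control 1 or 2 (adjusted p = 0.0562 and 0.0643) or after quantile normalization (−0.54, adjusted p = 0.389). Acta1 made up 7.52% ± 0.377 of the pair in unstretched control, 2.98% ± 0.0919 in unstretched Wnt5a siRNA, 4.99% ± 2.86 in stretched control and 1.56% ± 0.428 in stretched Wnt5a siRNA libraries (SD, n = 3). The stretched control share was 6.625% without stretched control 3.

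**Figure D3:**
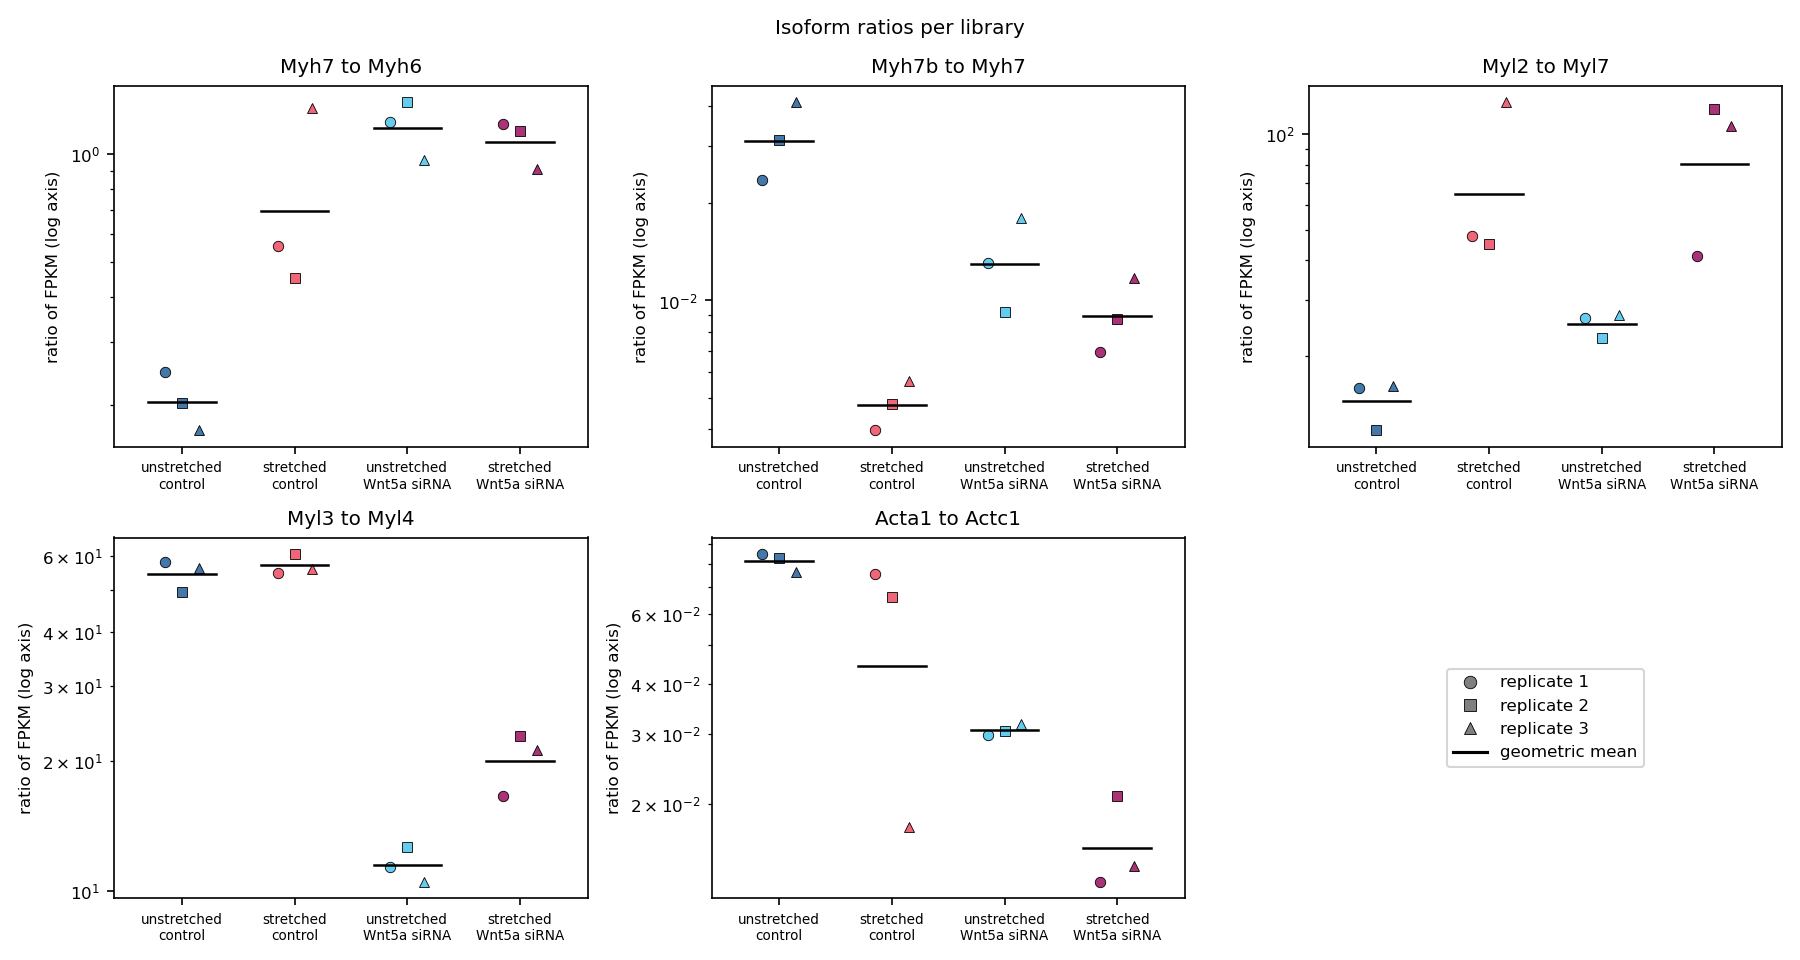
Ratios of FPKM between isoforms (vertical axes, log scale) per library, with lines at the geometric mean of each group and point shapes for the replicate number. In Myl3 to Myl4 the 6 Wnt5a siRNA libraries, at 10.5 to 22.9, sit under the 6 control libraries, at 49.5 to 60.7, and in Myh7 to Myh6 and Acta1 to Actc1 stretched control 3 sits among or near the Wnt5a siRNA libraries.

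**Figure D4:**
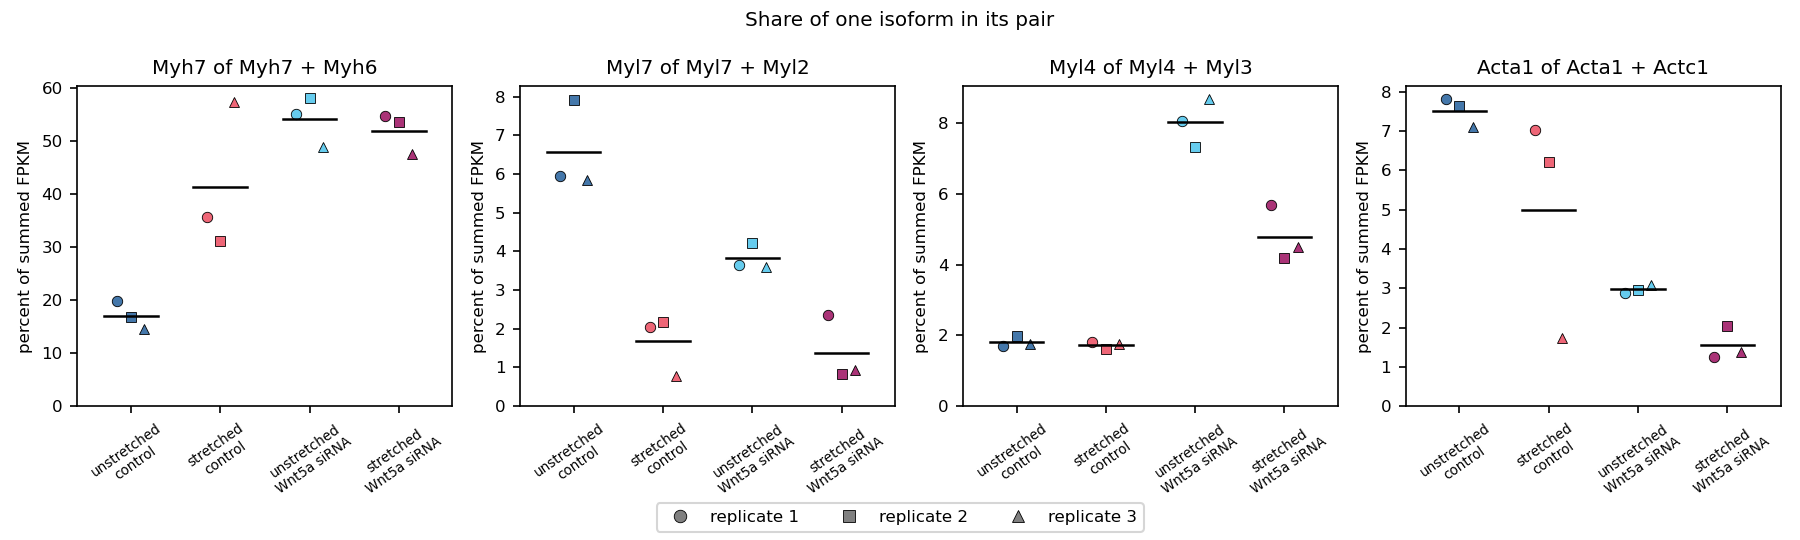
Share of 1 isoform in the summed FPKM of its pair (vertical axes, percent, from 0) per library, with lines at group means and point shapes for the replicate number. Myh7 of Myh7 + Myh6 has its lowest mean in unstretched control (17.0%), and Myl4 of Myl4 + Myl3 its highest in unstretched Wnt5a siRNA libraries (8.03%).

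Of the other myosin and actin isoforms, those of smooth muscle, skeletal muscle and non-muscle cells, stretch with control siRNA raised 3 and lowered 3 of the 15 tested (24 were looked for), against 27.5% and 26.8% of all genes. Myh11, the smooth muscle heavy chain, fell from a mean of 45.4 to 12.1 FPKM (log2 change −1.83 ± 0.18, limma adjusted p = 7.8e-06), Myh14, a non-muscle heavy chain, from 25.0 to 8.82 (−1.49 ± 0.22), and Actg2, an enteric smooth muscle actin, from 98.0 to 52.5 (−0.90 ± 0.21). Myl12a, a non-muscle regulatory light chain, rose from 1298 to 2081 FPKM (0.67 ± 0.13, adjusted p = 0.0011), but by 0.23 after quantile normalization (adjusted p = 0.164). Under stretch Wnt5a siRNA raised none of the 15 and lowered 8, against 13.2% and 14.2% of all genes, among them Myl12a (−0.66 ± 0.13, adjusted p = 0.0059). Wnt5a siRNA without stretch raised 1 and lowered 0, and stretch with Wnt5a siRNA raised 0 and lowered 5. Of all genes, 14.6% rose and 13.9% fell in the former, and 8.44% and 7.59% in the latter. For the difference of the stretch changes the shares were 11.7% and 12.1%. These shares also stand beside the counts of the lists that follow. When stretched control 3 was left out, stretch with control siRNA raised 3 and lowered 3, Wnt5a siRNA under stretch raised 0 and lowered 9, and stretch with Wnt5a siRNA raised 0 and lowered 8. In that fit 57.4%, 44.4% and 25% of all genes were called in these comparisons, in the same order, and 34.6% for the difference. Myl6, a non-muscle essential light chain of most cells, is listed at or near 0 in all libraries, which can be a failed estimate.

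Of 21 tested partners of the 9 genes in the sarcomere, 6 rose with stretch and control siRNA and 10 fell, against 27.5% and 26.8% of all genes, so that the share that rose was near that of all genes. Csrp3, a Z-disc protein linked to stretch sensing, rose from 734.5 to 2571 FPKM (log2 change 1.82 ± 0.21, limma adjusted p = 2.2e-05), and Des, desmin, from 566 to 1289.7 (1.17 ± 0.16, adjusted p = 8.5e-05). Nebl, nebulette of the Z-disc, fell from 194 to 65.1 FPKM (−1.65 ± 0.25, adjusted p = 1.4e-04), and Tmod1, which caps thin filaments, from 117 to 74.4 (−0.65 ± 0.09, adjusted p = 6.1e-05). Under stretch Wnt5a siRNA raised 0 and lowered 7, with Des at −1.20 ± 0.16 (adjusted p = 0.0016). Without stretch it raised 4 and lowered 5, and stretch with Wnt5a siRNA raised 0 and lowered 7. The difference of the stretch changes was higher for 3 and lower for 4, and for 2 and 6 without stretched control 3, where 34.6% of all genes were called. When stretched control 3 was left out, stretch with control siRNA raised 5 and lowered 10, with Nebl at −1.29, and under stretch Wnt5a siRNA raised 1 and lowered 10. In that fit 57.4% and 44.4% of all genes were called in these comparisons.

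Genes that fold myosin or set light chain phosphorylation gave 2 higher and 6 lower of 12 tested in stretch with control siRNA, against 27.5% and 26.8% of all genes. Smyd1, a methyltransferase needed for thick filament assembly, fell from 135 to 55.0 FPKM (log2 change −1.28 ± 0.11, limma adjusted p = 4.1e-06), and Mylk, the myosin light chain kinase of smooth muscle, from 29.95 to 13.9 (−1.05 ± 0.09, adjusted p = 4.1e-06). Ppp1r12b, a targeting subunit of myosin phosphatase, fell from 73.4 to 39.3 (−0.91 ± 0.15), while its catalytic partner Ppp1cb rose from 176 to 279 (0.66 ± 0.07, adjusted p = 1.1e-05). Under stretch Wnt5a siRNA raised 1, Smyd1 (0.52 ± 0.11, adjusted p = 0.0074), and lowered 6, including Ppp1cb (−0.50 ± 0.07, adjusted p = 0.0016). Without stretch it raised 0 and lowered 7, and stretch with Wnt5a siRNA raised 0 and lowered 4. The difference of the stretch changes was higher for 1 and lower for 1, and for 1 and 3 without stretched control 3, where 34.6% of all genes were called. When stretched control 3 was left out, stretch with control siRNA raised 3 and lowered 6, and under stretch Wnt5a siRNA raised 1 and lowered 9. In that fit 57.4% and 44.4% of all genes were called in these comparisons.

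Of 29 tested transcription factors and cofactors of these genes, 15 fell with stretch and control siRNA and 0 rose, against 26.8% and 27.5% of all genes, and without stretched control 3 the counts were 14 and 4. Tbx5, a cardiac T-box factor, fell from 19.9 to 7.13 FPKM (log2 change −1.36 ± 0.09, limma adjusted p = 1.3e-06), Rxra, a partner of thyroid hormone receptors, from 40.2 to 21.6 (−0.87 ± 0.07), and Hdac9, a repressor of Mef2 factors, from 10.3 to 3.43 (−1.36 ± 0.12). Rxrg, another retinoid X receptor, went from 6.43 to 0.458 (−2.32 ± 0.24, adjusted p = 9.6e-06), a level under the filter, where log2(FPKM + 1) understates the change. The difference of the stretch changes was higher for 9 and lower for 0, against 11.7% and 12.1% of all genes, but higher for 11 and lower for 6 without stretched control 3. Stretch with Wnt5a siRNA raised 0 and lowered 5, Wnt5a siRNA without stretch raised 1 and lowered 9, and under stretch it raised 4 and lowered 5. Without stretched control 3 the last 2 counts were 6 and 9, where 44.4% of all genes were called. Srf, which binds CArG boxes, was at 51.8, 54.2 and 53.2 FPKM in unstretched control and 40.1, 43.0 and 37.2 in unstretched Wnt5a siRNA libraries. In stretched cells it was at 63.8, 64.7 and 37.3 with control siRNA and 37.5, 42.7 and 34.0 with Wnt5a siRNA, so that stretched control 3 again lay within the range of the stretched Wnt5a siRNA libraries.

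For 4 of the 9 genes the most similar tested genes outside the 9 were named, by Pearson's r of log2(FPKM + 1) over the 12 libraries, which share groups and scaling. Provisional symbols, such as LOC with digits, were passed over. Myh6 went with Acadl (r = 0.993), Cs (0.991) and Vdac1 (0.990), genes of fatty acid oxidation, the citric acid cycle and the outer mitochondrial membrane. Myh7 went with Paxip1 (0.944), Chek1 (0.935) and Gsdmd (0.913). Myl7 went with Mybphl (0.943), Hunk (0.938) and Sln (0.932), of which Mybphl and Sln, sarcolipin, are atrial muscle genes. Mybphl and Hunk were near the floor, with group means of 0.431 to 2.40 and 0.634 to 1.90 FPKM. Sln was at 0 in stretched Wnt5a siRNA 2 and at 1.41 in stretched control 3. Acta1 went with Polr2m (0.989), Srf (0.977) and Idh3a (0.975). These are descriptions over 12 libraries and carry no test.

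Markers of other cells moved with the same groups. The summed FPKM of 9 cardiomyocyte markers was 16320 to 18249 in unstretched control, 12748 to 13343 in unstretched Wnt5a siRNA, 14402 to 20820 in stretched control and 11764 to 14818 in stretched Wnt5a siRNA libraries. Tnnt2 and Tnnc1 made up most of this sum. With stretch and control siRNA 5 of the 9 markers fell and 2 rose, against 26.8% and 27.5% of all genes, with the same counts without stretched control 3. In this comparison Ryr2 went from 213 to 108 FPKM, Pln from 1138 to 548 and Atp2a2 from 1453 to 688. Tnnc1 went from 4862 to 6906, Csrp3 from 734.5 to 2571 and Tnnt2 from 5614 to 5305. That of 12 fibroblast markers was 3508 to 4015, 5274 to 5560, 4849 to 8404 and 8866 to 9487, in the same order, and Col1a2 is listed at 0 throughout. Stretched control 3 held the 8404, against 4849 and 4893 in the other replicates, and the lowest cardiomyocyte sum of its group. Of 11 fibroblast markers tested, 8 rose with stretch and control siRNA and 6 with Wnt5a siRNA under stretch, and none fell in either. Of all genes, 27.5% and 13.2% rose in these comparisons, and 26.8% and 14.2% fell. Without stretched control 3 the fibroblast counts were 8 higher and 1 lower, and 8 higher and 0 lower. In that fit 57.4% and 44.4% of all genes were called. The part of these markers in the changes of the 9 genes was not tested.

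Of the other lists, 8 smooth muscle markers summed to 4895 to 6037, 4583 to 6809, 5055 to 8385 and 3387 to 4131 FPKM in the same 4 groups. With Wnt5a siRNA under stretch 6 of 8 fell, against 14.2% of all genes, and 7 without stretched control 3, where 44.4% of all genes were called. The sum of 10 macrophage and leukocyte markers was 133 to 174, 119 to 128, 262 to 426 and 295 to 332 FPKM. Atrial markers without the light chains summed to 203 to 224 FPKM in unstretched control, 161 to 171 in unstretched Wnt5a siRNA, 93.6 to 139 in stretched control and 102 to 124 in stretched Wnt5a siRNA libraries. With stretch and control siRNA 5 of 7 tested fell, against 26.8% of all genes, and Bmp10 and Dhrs9 were under 1 in every library. Without stretched control 3, 4 of these 7 fell, where 57.4% of all genes were called. The sum of 6 ventricular markers was 2195 to 2343 FPKM in unstretched control, 1027 to 1285 in unstretched Wnt5a siRNA, 972 to 1511 in stretched control and 1135 to 1178 in stretched Wnt5a siRNA libraries. Of these, 5 of 6 fell with stretch and control siRNA, against 26.8% of all genes, with the same count without stretched control 3. With Wnt5a siRNA without stretch, the comparison in which Myh6 fell and Myh7 and Myl4 rose, 3 of 6 fell, against 13.9% of all genes. Skeletal muscle markers summed to at most 4.51 FPKM, and the regulators Myod1, Myog, Myf5 and Myf6 were under 1 in every library. Of the 152 genes listed in these and the lists above, 15 stand in 2 lists, among them Tnnt2, Tnnc1 and Csrp3 (partners and cardiomyocyte markers), Des, Myh11 and Mylk (smooth muscle markers too), Pln and Tbx5. Endothelial markers summed to 54.5 to 87.9 FPKM in stretched Wnt5a siRNA libraries, above every other library (27.6 to 49.2), and erythroid markers to 0.0299 to 8.69 in all. Their part in the results was not tested either.

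**Figure D5:**
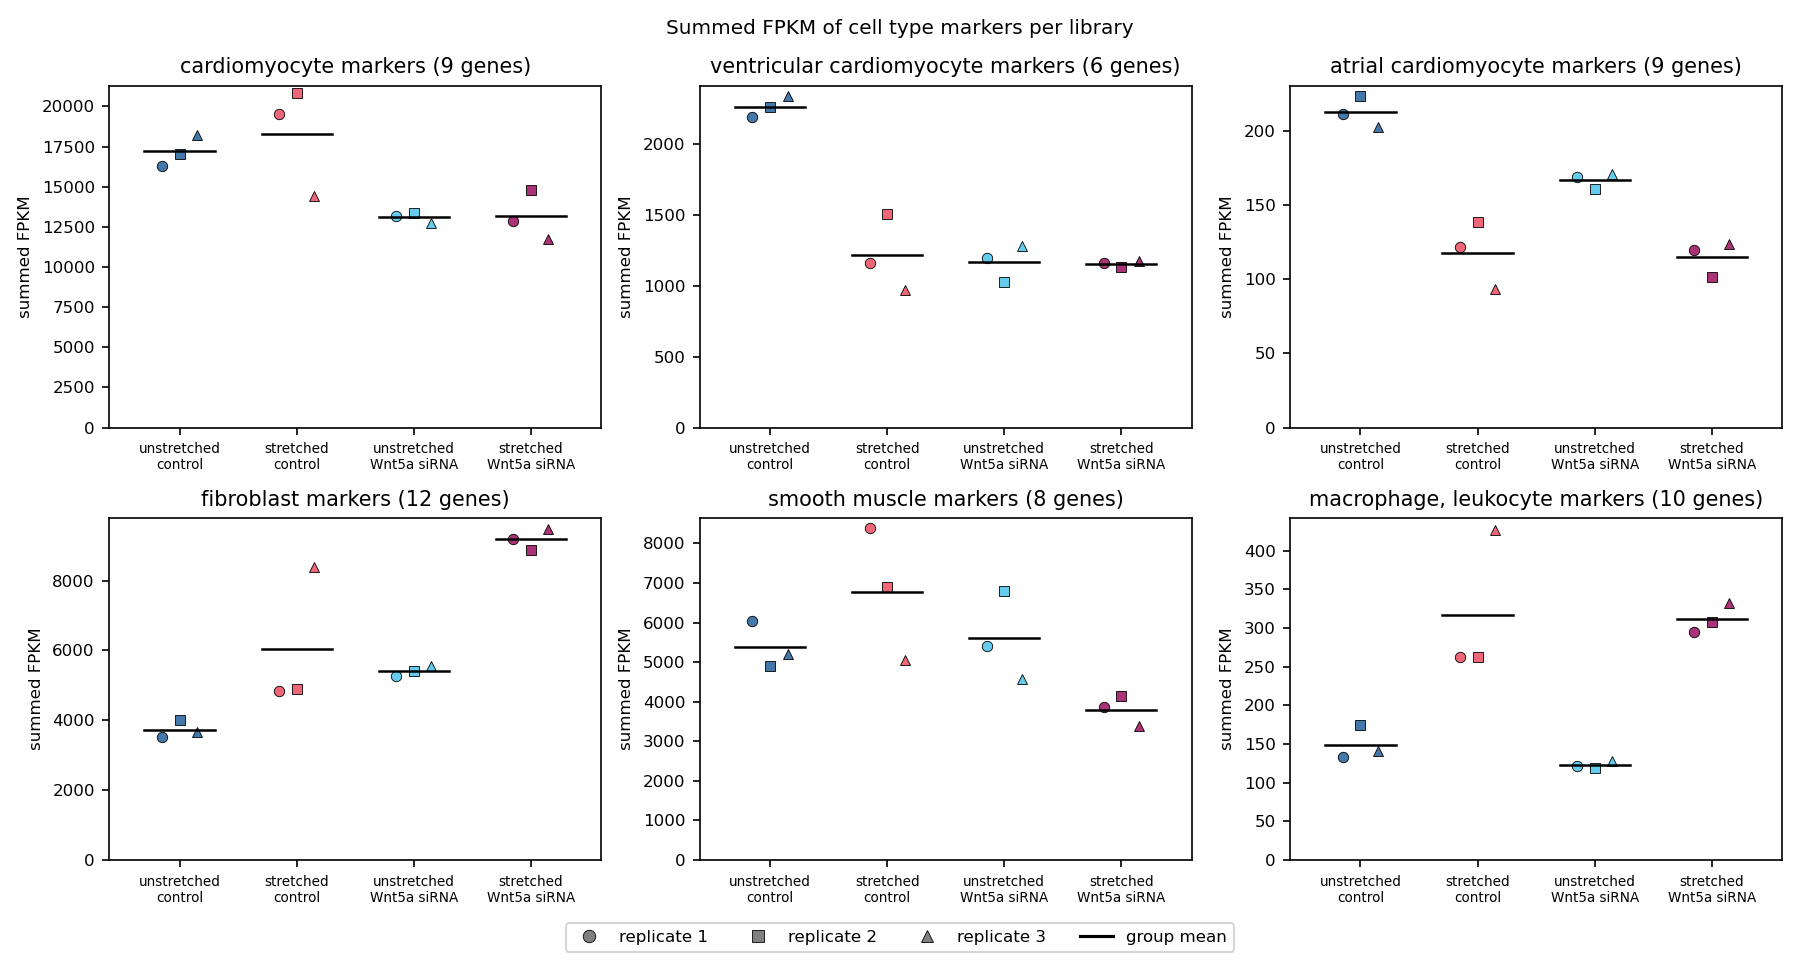
Summed FPKM of the markers of 6 cell types (vertical axes, linear, from 0) per library, with lines at group means and point shapes for the replicate number. Fibroblast markers are highest in stretched Wnt5a siRNA libraries (8866 to 9487), and stretched control 3, at 8404, lies nearer to them than to its own group.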

How the data were processed

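Each of the 12 libraries has 1 table of FPKM per gene, as deposited by the authors. Per the labels' protocols, libraries were made from total RNA with a stranded mRNA kit, and per the submitters' processing notes TopHat2 2.1.1, Bowtie2, Cuffdiff 2.2.1 and the rat build rn6 were used. The sources used here name no annotation, do not say whether counting used the strand, and do not say how reads that fit more than 1 gene were handled. Libraries were placed in groups by the labels. Depth is unknown: of 1523 low genes 90.1% had values in whole ratios (within 5%), and the value of 1 fragment spanned 1.21-fold over libraries, so no count test was run.

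Genes with at least 1 FPKM in at least 3 libraries were fitted as log2(FPKM + 1) with limma 3.58.1 in R 4.3.3, with 4 group means, 8 residual degrees of freedom and a variance trend. P-values are 2-sided and adjusted by Benjamini and Hochberg over all 10518 genes. The pseudocount of 1 makes fold changes of low genes too small. Ratios were tested by exact permutation, and 3 libraries against 3 cannot give a p under 0.1. The scripts were tested on simulated data.

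The alternatives were other pseudocounts, filters, scalings and variance priors, the compared groups alone, each library left out, and the replicate number as a block. List counts without stretched control 3 were added after seeing the data. Same-numbered libraries deviated together in stretch with Wnt5a siRNA (correlations 0.143 to 0.242 over genes), so there the numbers may pair the libraries. Correlations were also positive in Wnt5a siRNA without stretch (0.058 to 0.186) and under stretch (0.095 to 0.231), where pairing is possible too. In both, however, Wnt5a siRNA replicate 2 correlated more with control replicate 1 (0.066 and 0.214) than with control replicate 2 (0.058 and 0.095). Positive values alone thus do not settle pairing there. The labels do not say what a number marks.

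The 9 genes and the gene lists were chosen with earlier results of these data known. Besides the 9, the text names up to 4 genes of each list by smallest adjusted p in stretch with control siRNA, the 3 genes most similar to Myh6, Myh7, Myl7 and Acta1 (the 9 and provisional symbols passed over), and defining markers. Myl6, Ryr2, Pln and Atp2a2 were named after their values were seen. Promoter sequences are from RefSeq (GRCr8).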

Additional observations from a re-analysis of the deposited data

Results flagged for a closer look

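Of the 9 genes, 3 had a stretch change that differed between the siRNAs by a test of the difference itself, limma's interaction term. Of all genes tested, 23.8% passed this test. For Myh7 the difference, stretch change with Wnt5a siRNA minus that with control siRNA, was −1.12 on the log2 scale (adjusted p = 0.0026), as it rose with stretch under control siRNA and fell under Wnt5a siRNA. The rise of Myh7 did not pass with libraries scaled to the same sum (0.23, limma adjusted p = 0.123) or after quantile normalization (0.14, 0.308). For Myl4 it was −1.02 (adjusted p = 0.0026), as the fall with stretch was larger under Wnt5a siRNA. For Myh7b it was 0.93 (adjusted p = 0.0277, 0.0537 to 0.0743 without any 1 of 7 libraries named above), as the fall was smaller under Wnt5a siRNA. For the ratio of Myh7b to Myh7 the difference was 2.18 (exact permutation p = 0.005, adjusted p = 0.0187). The null of that permutation is no siRNA effect in either state, so it is not an interaction test like limma's. The unstretched Wnt5a siRNA libraries had the highest Myh7 and Myl4 of the 4 groups. Fibroblast marker sums also differed between these groups, and their part in the differences was not tested.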

How the results depend on the processing

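Of 936 alternative values for the 45 changes of the 9 genes, 861 kept direction and side of the threshold, 37 no longer passed, 21 newly passed and 17 changed sign. Of 225 for the 15 ratio tests 208 were the same. The shares carry no test and no sign, so their 48 alternative values cannot be judged in this way. With 1 library left out, the Myh7 share in stretched control ran from 33.4% to 46.5%. The Acta1 share there ran from 3.97% to 6.625%. Sign changes, all in values that did not pass except where noted, were as follows. Myh7 with Wnt5a siRNA under stretch ran from −0.07 (without stretched Wnt5a siRNA 2) to 0.15 with 1 library left out. Myh7b with Wnt5a siRNA and no stretch was 0.04 without unstretched control 3 and 0.05 without unstretched Wnt5a siRNA 2, with a lowest value of −0.19. Myl2 in stretch with Wnt5a siRNA was −0.12 with equal sums, −0.21 after quantile normalization, −0.02 without unstretched Wnt5a siRNA 2 or stretched Wnt5a siRNA 1, and −0.08 without stretched Wnt5a siRNA 2, with a highest value of 0.13. The Myl7 difference of stretch changes was −0.50 without stretched control 3 and −0.38 without stretched Wnt5a siRNA 1, with a highest value of 0.48. Acta1 in stretch with control siRNA was −0.10 with equal sums, −0.09 after quantile normalization, −0.32 without stretched control 1 and −0.24 without stretched control 2, with a highest value of 0.95. Quantile normalization, which fixes the values of the top ranks, took Actc1 to −0.00 in stretch with control siRNA and 0.00 in Wnt5a siRNA under stretch, both passing before, and to 0.34 for the difference, as its rank was 2 in 2 unstretched Wnt5a siRNA libraries. Nebl with Wnt5a siRNA under stretch was −0.35 without stretched control 3 and −0.07 without stretched Wnt5a siRNA 3, with a highest value of 0.31. The Acta1 to Actc1 difference of stretch changes was 0.27, 0.17 and 0.03 without stretched control 1, stretched control 2 and stretched Wnt5a siRNA 1. The cause of the others was not tested.

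With only the stretched libraries in the fit, 1208 genes were called for Wnt5a siRNA under stretch, against 2875, while the same choice gave more genes for stretch with Wnt5a siRNA (2260 against 1686) and Wnt5a siRNA without stretch (3678 against 3002). The cause was not tested. Without the filter on low values, 3 of the 9 genes were called in stretch with Wnt5a siRNA, against 5. Quantile normalization gave −0.54 for the stretch change of Acta1 to Actc1. Leaving out 1 library gave 4830 to 6035 genes for stretch with control siRNA, 849 to 2625 for stretch with Wnt5a siRNA (1686 with all libraries), 1774 to 3935 for Wnt5a siRNA without stretch (3002), 1102 to 4668 under stretch and 1574 to 3638 for the difference (2503). Of the 9 genes it gave 5 to 7, 3 to 6, 3 to 5, 3 to 8 and 2 to 6, in the same order. The ratio changes ran from 1.43 to 1.83 for Myh7 to Myh6 with Wnt5a siRNA, 0.39 to 0.50 for Myl3 to Myl4 with stretch, −1.12 to −0.59 for Acta1 to Actc1 with stretch and −0.79 to 0.27 for its difference.

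With the replicate block, 5710, 1693, 3093, 2928 and 2566 genes were called in the 5 comparisons, and of the 9 genes only the call of Myl4 in stretch with control siRNA changed (adjusted p = 0.0487). For the ratios the block is an exact sign-flip test of same-numbered differences, too coarse to pass after adjustment: 1.59 for Myh7 to Myh6 with Wnt5a siRNA (adjusted p = 0.134), and at 0.0781 each −1.62 and, for the difference, 2.18 for Myh7b to Myh7, 1.92 for Myl2 to Myl7 with stretch, −1.88 for Myl3 to Myl4 with Wnt5a siRNA, and −0.93 with stretch and −1.46 with Wnt5a siRNA for Acta1 to Actc1. Same-numbered libraries correlated at −0.019 to 0.249 in stretch with control siRNA, 0.058 to 0.186 in Wnt5a siRNA without stretch and 0.095 to 0.231 under stretch. Whether the numbers pair libraries there is not known, and the main fits did not pair them. With unknown depth, the precision of low genes such as Myh7b cannot be stated.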
